A study of Mus musculus with 9 samples.

Results

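Toll-like receptors (TLRs) pass their signal through a small set of adaptors, kinases and ubiquitin ligases, and the transcripts of 10 of these genes are described here in mouse dendritic cells (DC). The genes are the adaptors Myd88, Tirap, Ticam1 and Ticam2, the kinases Irak1, Irak2, Irak3 and Irak4, and the ligases Traf3 and Traf6. They were found by name in a table of 39179 genes, where each of the 10 is listed once, and all 10 had enough counts to be among the 13819 genes tested.

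The RNA libraries came from 3 subsets of splenic DC (cDC1, cDC2 and pDC) of C57BL/6J mice at steady state, with no stimulus and no altered gene in any group. The cDC1 are conventional DC that carry CD8 (labelled CD8pos), the cDC2 are conventional DC that lack it (CD8neg), and the pDC are plasmacytoid DC, which were sorted by a high level of CD317. Each subset has 3 libraries, and each library came from a pool of 15 to 17 mice aged 6 to 12 weeks, so the values carry no spread between single animals. Libraries with the same replicate number carry the same date code in the 3 subsets and are treated as 1 sort.

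In the textbook account, a TLR that binds its ligand draws adaptors to its TIR domain. MyD88 serves most TLRs and the IL-1 receptors, and TIRAP bridges MyD88 to TLR2 and TLR4 at the membrane. TRIF, encoded by Ticam1, is the adaptor of TLR3, and TRAM, encoded by Ticam2, bridges TRIF to TLR4. MyD88 assembles IRAK4 with IRAK1 and IRAK2, TRAF6 then carries the signal to NF-κB and the MAP kinases, and TRAF3 is used on the route to the interferon regulatory factors. IRAK3, also called IRAK-M, restrains the pathway. In DC these routes lead to cytokines, co-stimulation and, in pDC, to type I interferon through MyD88.

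Counts on genes summed to between 15806597 and 32453789 a library, and replicate 3 had the lowest total in each subset. Levels are given as CPM, the count relative to the library's TMM-scaled total, and 3 counts, the floor used here, correspond to between 0.0908 and 0.203 CPM, which covers counting error only. The sort markers followed the labels, with Bst2, which encodes CD317, at 2325 ± 163 CPM (SD, n = 3) in pDC. Cd8a stood at 1434 ± 209 CPM in cDC1 and 21.1 ± 3.29 CPM in cDC2, but also at 337.5 ± 55.7 CPM in pDC. Itgam, which encodes CD11b, stood at 11.6 ± 4.16, 235 ± 13.5 and 11.3 ± 4.005 CPM in cDC1, cDC2 and pDC. Itgax, which encodes CD11c, stood at 1092 ± 53.6, 1751 ± 170.7 and 540 ± 87.6 CPM in the same order. All 10 immediate-early and heat-shock genes examined were higher in replicate 3 than in replicates 1 and 2, by between 0.55 and 2.23 on the log2 scale. A rise of immediate-early genes there was known from earlier results of these data, so this describes the sort and tests nothing. Of all genes, 23.0% were called between replicate 3 and replicates 1 and 2, in either direction. Calls of the adaptor, kinase and ligase genes that change without the third sort are given with both values. Libraries of whole populations cannot tell fewer cells that carry a transcript from less of it in each cell.

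The promoters of 3 of the genes are printed first, because the levels of Myd88 and Traf3 both stood highest in cDC2 and also moved with the sort, while Irak1 held nearly the same level in all subsets. The windows are the bases before the transcription start in RefSeq (GRCm38.p6), 5′ to 3′ on the strand of the gene. The Myd88 window is chr9:119340042-119340268 on the minus strand, the Traf3 window is chr12:111166120-111166369 on the plus strand, and the Irak1 window is chrX:74023922-74024171 on the minus strand. The 23 bases nearest to the RefSeq start of Myd88 were left out because GENCODE places them in the first exon of its principal transcript. The GENCODE span of Myd88 runs on to 119341411, so the printed window lies upstream of the principal start but inside that span. Capitals mark letters that match a motif on either strand, GAAANNGAA (from an interferon-stimulated response element) in Myd88 and GGGNNTTCC (from an NF-κB site) in Traf3, and the Irak1 window holds neither.
Myd88: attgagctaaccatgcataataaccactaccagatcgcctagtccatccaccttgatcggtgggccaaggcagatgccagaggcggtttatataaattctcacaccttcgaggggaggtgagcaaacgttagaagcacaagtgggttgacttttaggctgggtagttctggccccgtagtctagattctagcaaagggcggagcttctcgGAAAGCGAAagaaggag
Traf3: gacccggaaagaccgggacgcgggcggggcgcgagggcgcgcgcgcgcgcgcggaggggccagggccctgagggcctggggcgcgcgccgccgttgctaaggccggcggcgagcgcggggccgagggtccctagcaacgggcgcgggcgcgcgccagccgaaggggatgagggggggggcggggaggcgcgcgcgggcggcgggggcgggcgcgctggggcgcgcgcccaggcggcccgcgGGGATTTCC
Irak1: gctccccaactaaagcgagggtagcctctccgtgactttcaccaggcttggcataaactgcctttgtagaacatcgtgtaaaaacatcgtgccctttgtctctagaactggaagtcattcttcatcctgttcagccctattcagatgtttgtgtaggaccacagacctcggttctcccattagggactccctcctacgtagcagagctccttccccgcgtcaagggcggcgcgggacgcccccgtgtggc

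The match in Myd88 begins 40 bases before the RefSeq start, and that in Traf3 begins 9 bases before it. The table of RefSeq promoters used here holds 9 of the 10 genes and has no entry for Ticam2. In the 250 bases before a start, the NF-κB letters occur in Traf3 alone of the 9 genes and in 4.98% of all 32851 promoters in the table. The interferon letters occur in 2 of the 9, Myd88 and 1 of the starts of Irak3, and in 7.13% of all promoters. None of the 9 held the letters GAGGAAGT (PU.1), CAGGTG (an E-box) or TGANTCA (AP-1), which occur in 2.44%, 17.2% and 6.75% of all promoters. These are matches of letters only, counted by gene for the 9 and by promoter for the whole table. Tirap, Irak1 and Irak3 have more than 1 start there, so the 2 measures are not alike.

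Across the 3 subsets, 7 of the 10 genes differed (edgeR's quasi-likelihood test for any difference, Benjamini-Hochberg adjusted p under 0.05), against 56.0% of all genes tested. Without replicate 3 of each subset, 8 of the 10 differed (Irak2 in addition, edgeR adjusted p = 0.0291), against 71.7% of all genes tested in that fit. The 7 were Myd88, Tirap, Ticam1, Ticam2, Irak3, Irak4 and Traf3, and the other 3 were Irak1, Irak2 and Traf6. With subset as the only term and all 9 libraries, none of the 10 was called higher in pDC than in a conventional subset. Of all genes, 24.3% were called higher in pDC than in cDC1 and 22.5% higher than in cDC2. Other fits called Irak2 higher in pDC than in cDC2, with the replicate number as a block or without replicate 3 of each subset. The same call was made in 1 of 9 fits that left out a single library (edgeR adjusted p = 0.0355). Ticam2 was called higher in pDC than in cDC1 without pDC replicate 2. The genes that differed fell into different patterns. Ticam1 and Tirap stood highest in cDC1, whereas Ticam2, Irak3, Traf3 and Myd88 stood highest in cDC2, and Irak4 stood lowest in pDC.

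**Figure D1:**
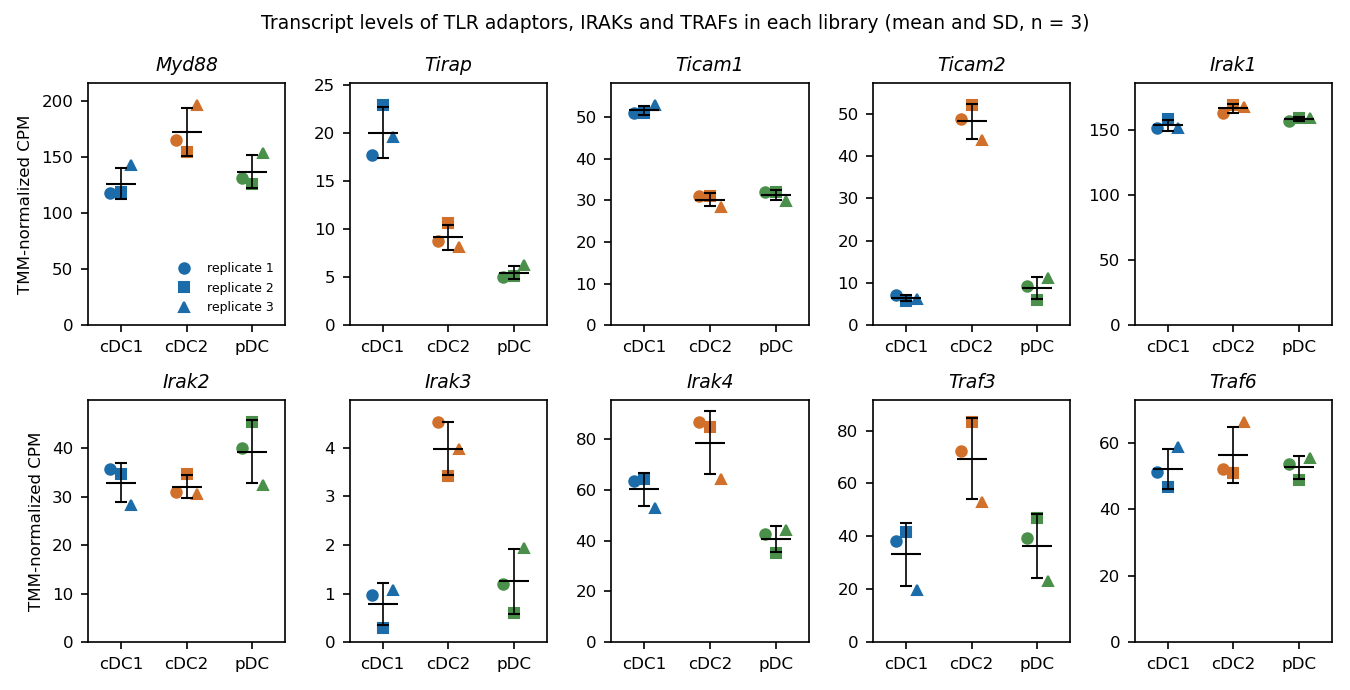
Level of each gene in each library as TMM-normalized CPM, on a linear axis from 0 that differs between panels, with the mean and SD of the 3 libraries of a subset in black. Ticam2 stood between 44.0 and 52.1 CPM in cDC2 and at or below 11.2 CPM in the other libraries, and Irak1 stood between 151 and 169 CPM in all 9.

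In pDC against cDC1, 3 of the 10 genes (Tirap, Ticam1 and Irak4) were called, all lower in pDC, where 48.6% of all genes were called and 24.4% were called lower in pDC. In pDC against cDC2, 5 (Tirap, Ticam2, Irak3, Irak4 and Traf3) were called, all lower in pDC, where 45.8% of all genes were called and 23.3% were called lower in pDC. In cDC2 against cDC1, 6 were called, 4 higher (Myd88, Ticam2, Irak3 and Traf3) and 2 lower (Tirap and Ticam1) in cDC2, where 24.4% of all genes were called, 12.7% higher and 11.7% lower. The median absolute log2 fold change of the 10 genes was 0.36, 0.54 and 0.61 in the same order of comparisons, beside 0.63, 0.59 and 0.36 over all genes. The median of the 10 genes was thus below the median of all genes in the 2 comparisons with pDC and above it between the conventional subsets. Libraries of the compared subsets did not overlap for 3, 7 and 7 of the 10 genes, beside 58.6%, 56.1% and 44.5% of all genes. With the replicate number as a block, 3, 7 and 7 were called, beside 58.6%, 55.5% and 35.6% of all genes. Without replicate 3 of each subset, 3, 7 and 7 were called, beside 63.0%, 59.8% and 37.7% of all genes tested in that fit.

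**Figure D2:**
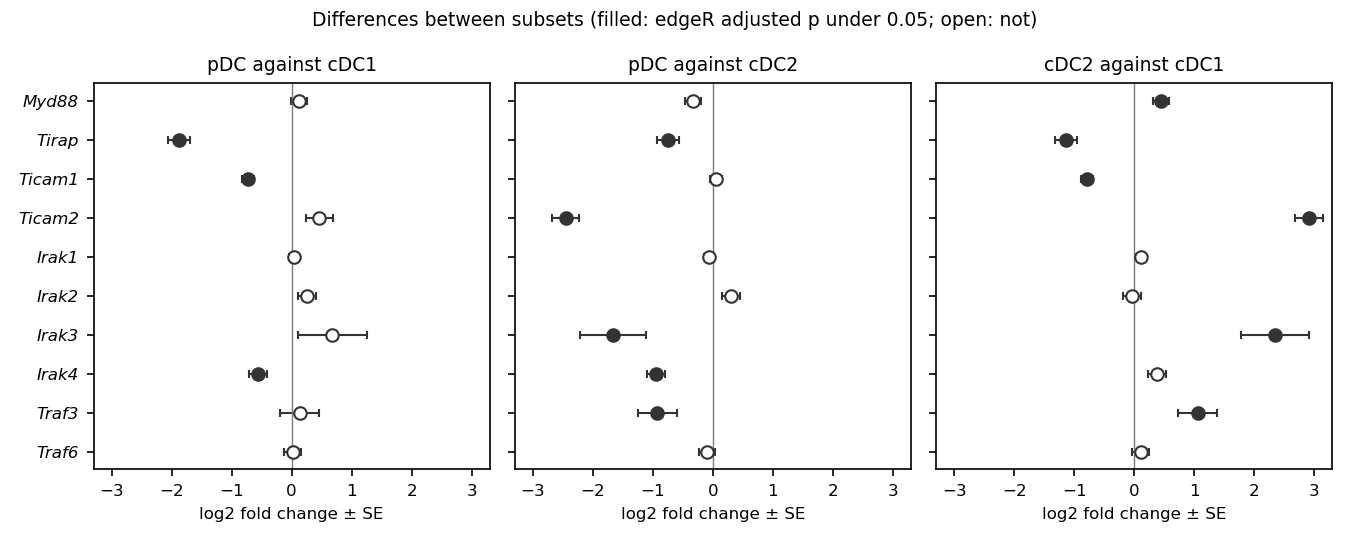
Log2 fold changes of the 10 genes with their standard errors in the 3 comparisons, first-named subset minus second (edgeR over 9 libraries). Ticam2 had the widest difference of the 10, 2.92 for cDC2 against cDC1, and no filled point lies to the right of 0 in either comparison with pDC.

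Among the TIR adaptors, Ticam2 (ENSMUSG00000056130, TRAM) separated cDC2 from both other subsets. In GRCm38 it spans 46557291 to 46574533 of chromosome 18 (minus strand). Its levels were 48.8, 52.1 and 44.0 CPM in cDC2 replicates 1, 2 and 3. They were 7.25, 5.76 and 6.16 CPM in cDC1, and 9.38, 5.88 and 11.2 CPM in pDC. All cDC2 libraries lay above all others, while cDC1 and pDC overlapped. The log2 fold change was 2.92 for cDC2 against cDC1 (SE 0.232, edgeR adjusted p = 2.07e-05), a 7.54-fold difference, and -2.45 for pDC against cDC2 (SE 0.226, adjusted p = 1.51e-05). For pDC against cDC1 it was 0.46 (SE 0.224, edgeR adjusted p = 0.118), and without pDC replicate 2 it was 0.66 and past the threshold (adjusted p = 0.0140). Of the exon bases of Ticam2, 14.5% are shared on the same strand with Tmed7, so some of its reads could be assigned to either gene. Tmed7 stood at 172 ± 52.2, 182 ± 45.7 and 224 ± 84.1 CPM (SD, n = 3) in cDC1, cDC2 and pDC, with overlapping libraries.

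Ticam1 (ENSMUSG00000047123, TRIF), the adaptor of TLR3, showed the opposite order between the conventional subsets. It spans 56269319 to 56276786 of chromosome 17 (minus strand) and shares no exon base with another annotated gene. Its levels were 51.1, 51.1 and 53.0 CPM in cDC1, 31.0, 31.2 and 28.3 CPM in cDC2, and 31.96, 31.98 and 29.9 CPM in pDC. The cDC1 libraries lay above the other 6, which overlapped. The log2 fold change was -0.78 for cDC2 against cDC1 (SE 0.0991, edgeR adjusted p = 0.000343) and -0.72 for pDC against cDC1 (SE 0.0991, adjusted p = 0.000205). Between pDC and cDC2 it was 0.05, with an approximate 95% interval from -0.14 to 0.25. Intervals in this text use the SE and the normal distribution, so they are narrower than the quasi-likelihood test implies.

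Tirap (ENSMUSG00000032041, minus strand of chromosome 9, 35184551 to 35200291), the bridge to MyD88 at TLR2 and TLR4, fell in steps. Its levels were 17.7, 22.9 and 19.6 CPM in cDC1, 8.73, 10.6 and 8.13 CPM in cDC2, and 5.06, 5.12 and 6.25 CPM in pDC. No library of one subset overlapped those of another. Its log2 fold change for pDC against cDC1 was -1.88 (SE 0.190, edgeR adjusted p = 2.58e-05), beside -0.75 for pDC against cDC2 (SE 0.188, adjusted p = 0.00867) and -1.13 for cDC2 against cDC1 (SE 0.184, adjusted p = 0.00158). Tirap was the only one of the 10 genes that passed the threshold in all 3 comparisons. Of its exon bases, 9.84% lie opposite other genes, among them Srpr, which was highest in pDC at 177 ± 13.5 CPM (SD, n = 3).

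Myd88 (ENSMUSG00000032508, minus strand of chromosome 9, 119335934 to 119341411), the adaptor of most TLRs, was the most abundant adaptor in every subset and varied least among the 4. Its levels were 118, 118 and 142 CPM in cDC1, 165, 154 and 196 CPM in cDC2, and 131, 126 and 153 CPM in pDC. Replicate 3 was the highest library in each subset, and within each replicate number the order was cDC2, then pDC, then cDC1. Between cDC2 and cDC1 it differed by 0.45 on the log2 scale (SE 0.132, edgeR adjusted p = 0.0333). This call was lost without cDC1 replicate 1 or 2, cDC2 replicate 1 or 3, or pDC replicate 1 (adjusted p between 0.0507 and 0.130), and under upper quartile scaling (0.43, edgeR adjusted p = 0.0617). It was kept with the replicate number as a block (edgeR adjusted p = 0.000435) and without replicate 3 of each subset (0.41, adjusted p = 0.00661). For pDC against cDC2 the log2 fold change was -0.33 (SE 0.131, edgeR adjusted p = 0.0658), and with the replicate number as a block it passed the threshold (adjusted p = 0.00138), as it did without replicate 3 of each subset (-0.32, edgeR adjusted p = 0.0109). For pDC against cDC1 it was 0.12 (edgeR adjusted p = 0.498). Of the exon bases of Myd88, 11.3% lie opposite Acaa1a, which stood at 105 ± 1.88, 97.0 ± 2.93 and 105 ± 5.26 CPM (SD, n = 3) in cDC1, cDC2 and pDC.

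Levels per kilobase of exon allow the adaptors to be set against each other. Of the summed CPM per kb of the 4 adaptors, Myd88 took 68.4% ± 2.12 in cDC1, 76.5% ± 3.43 in cDC2 and 80.1% ± 1.46 in pDC (SD, n = 3). Ticam1 took 24.3% ± 1.39, 11.7% ± 1.48 and 15.9% ± 1.89 in the same order, and Tirap 5.73% ± 0.916, 2.16% ± 0.453 and 1.68% ± 0.0757. Ticam2 took 1.56% ± 0.262 in cDC1, 9.67% ± 1.54 in cDC2 and 2.28% ± 0.548 in pDC. Thus cDC1 held the largest share of Ticam1 and Tirap, cDC2 that of Ticam2, and pDC the largest mean share of Myd88. The Myd88 shares of cDC2 and pDC overlapped, with cDC2 between 73.5% and 80.3% and pDC between 79.3% and 81.8%.

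The ratio of Ticam1 to Myd88 within a library, which does not depend on how libraries are scaled, was 0.356 ± 0.0305 per length in cDC1, against 0.153 ± 0.0257 in cDC2 and 0.199 ± 0.0269 in pDC (SD, n = 3). On the log2 scale the difference was -1.23 for cDC2 against cDC1 and -0.84 for pDC against cDC1, with no overlap of libraries in either. The exact two-sided permutation p was 0.1 for each, the smallest that 3 libraries against 3 can give. For pDC against cDC2 the difference was 0.38, with overlapping libraries (exact permutation p = 0.2). Within sorts 1, 2 and 3 that difference was 0.37, 0.33 and 0.44, higher in pDC in each.

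**Figure D3:**
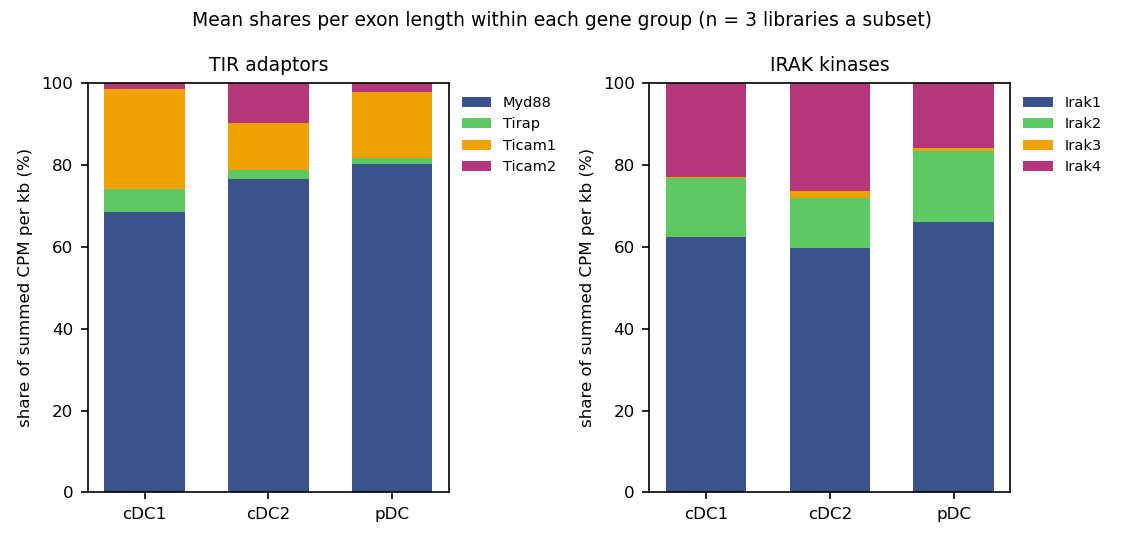
Mean share of each gene in the summed CPM per kb of exon of the 4 TIR adaptors (left) and the 4 IRAK kinases (right), as stacked bars from 0 to 100% for each subset. Myd88 and Irak1 make up the largest part of their bars in each subset, Ticam1 takes 24.3% in cDC1, and Ticam2 takes 9.67% in cDC2.

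Among the kinases, Irak4 (ENSMUSG00000059883, plus strand of chromosome 15, 94543643 to 94581815), which starts the kinase cascade on MyD88, was lowest in pDC. Its levels were 63.3, 64.3 and 52.6 CPM in cDC1, 86.4, 84.6 and 64.3 CPM in cDC2, and 42.7, 34.9 and 44.2 CPM in pDC. All pDC libraries lay below all libraries of the conventional subsets. Against cDC2, pDC had a log2 fold change of -0.95 (SE 0.153, edgeR adjusted p = 0.000652), and against cDC1 one of -0.57 (SE 0.153, adjusted p = 0.0118). For cDC2 against cDC1 it was 0.38 (SE 0.152, edgeR adjusted p = 0.0997), and with the replicate block it passed the threshold (adjusted p = 0.0486), as it did without replicate 3 of each subset (0.39, edgeR adjusted p = 0.0255). Of its exon bases, 7.87% lie opposite Twf1, at 42.2 ± 0.875, 26.2 ± 4.08 and 33.4 ± 3.398 CPM (SD, n = 3) in cDC1, cDC2 and pDC.

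Irak3 (ENSMUSG00000020227, minus strand of chromosome 10, 120141648 to 120202130), the restraining member of the family, was scarce. Its counts were 142, 98 and 75 in cDC2, 27, 7 and 16 in cDC1, and 40, 12 and 33 in pDC. As levels these were 4.53, 3.43 and 3.99 CPM in cDC2, 0.984, 0.292 and 1.08 CPM in cDC1, and 1.21, 0.608 and 1.94 CPM in pDC. The cDC2 libraries lay above all others, and replicate 2 was the lowest library in each subset. Of its exon bases, 5.98% lie opposite other genes, among them Tmbim4, which was highest in pDC at 85.6 ± 17.6 CPM (SD, n = 3). The log2 fold change was 2.35 for cDC2 against cDC1 (SE 0.573, edgeR adjusted p = 0.0140) and -1.67 for pDC against cDC2 (SE 0.553, adjusted p = 0.0321). The first was lost without cDC2 replicate 1 (adjusted p = 0.0556), and the second without any 1 of the cDC2 libraries or pDC replicate 1 or 2 (edgeR adjusted p from 0.0570 to 0.1). The ratio of Irak3 to Irak4 per length was 0.0185 ± 0.0112 in cDC1, against 0.0706 ± 0.0147 in cDC2 and 0.0409 ± 0.0183 in pDC (SD, n = 3). It differed by 2.17 on the log2 scale between cDC2 and cDC1 (exact permutation p = 0.1, the smallest possible), and both comparisons with pDC overlapped (exact permutation p = 0.2). Within sorts 1, 2 and 3 the log2 ratio in pDC differed from that in cDC1 by 0.87, 1.94 and 1.095, and from that in cDC2 by -0.88, -1.22 and -0.50, so each kept 1 sign.

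Of 5 macrophage and monocyte markers, Adgre1 and Csf1r were highest in cDC2, as Ticam2 and Irak3 were, whereas Cd68 and Ly6c2 were highest in pDC and Vcam1 passed the threshold in no comparison. Of the 5, 3 were called higher and none lower in cDC2 against cDC1, and 2 were lower and 2 higher in pDC than in cDC2. Their summed level was between 323 and 441 CPM in cDC1, between 994 and 1245 CPM in cDC2 and between 2478 and 3501 CPM in pDC, where Ly6c2 made up the largest part at 2226 ± 424 CPM (SD, n = 3). Adgre1, which encodes F4/80, stood at 17.7, 6.88 and 17.3 CPM in cDC1, 334, 308 and 390 CPM in cDC2, and 17.9, 4.16 and 20.03 CPM in pDC. Csf1r, the receptor of the macrophage growth factor, stood at 73.6, 41.8 and 76.7 CPM in cDC1, 401, 329 and 383 CPM in cDC2, and 70.4, 20.4 and 89.1 CPM in pDC. Both were lowest in replicate 2 in all 3 subsets, as Irak3 was, while Ticam2 was lowest in replicate 2 in cDC1 and pDC and highest there in cDC2. No marker of the 5 was under 1 CPM in every library. Their part in the results for Ticam2 and Irak3 was not tested.

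Irak1 (ENSMUSG00000031392, minus strand of the X chromosome, 74013914 to 74023918), the kinase that hands the signal on to TRAF6, held nearly the same level throughout, at 151, 159 and 151 CPM in cDC1, 163, 169 and 168 CPM in cDC2, and 157, 159 and 159 CPM in pDC. The 95% intervals of the log2 fold change were -0.11 to 0.20 for pDC against cDC1, -0.23 to 0.09 for pDC against cDC2 and -0.04 to 0.27 for cDC2 against cDC1. Irak2 (ENSMUSG00000060477, plus strand of chromosome 6, 113638467 to 113695026), a kinase of the same complex, stood at 35.7, 34.7 and 28.4 CPM in cDC1, 30.9, 34.8 and 30.5 CPM in cDC2, and 40.0, 45.4 and 32.5 CPM in pDC. The highest levels were in pDC replicates 1 and 2, and the subsets overlapped. For pDC against cDC2 its log2 fold change was 0.29 (SE 0.151, edgeR adjusted p = 0.141), which passed the threshold with the replicate block (adjusted p = 0.0390) and without replicate 3 of each subset (0.38, adjusted p = 0.0149).

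Per kilobase, Irak1 made up 62.5% ± 2.37 of the summed IRAK level in cDC1, 59.6% ± 3.01 in cDC2 and 66.0% ± 0.968 in pDC (SD, n = 3). Irak4 made up 22.9% ± 1.38, 26.3% ± 3.16 and 15.9% ± 2.04 in the same order, and Irak2 14.3% ± 1.11, 12.3% ± 0.566 and 17.5% ± 2.74. The share of Irak4 in pDC was between 13.6% and 17.4%, below all libraries of the conventional subsets, which began at 21.3%. Irak3 reached 1.83% ± 0.280 in cDC2 and stayed at 0.417% ± 0.239 in cDC1 and 0.672% ± 0.363 in pDC.

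Of the ligases, Traf3 (ENSMUSG00000021277, plus strand of chromosome 12, 111166370 to 111267153) was highest in cDC2 and also fell in the third sort. Its levels were 38.2, 41.8 and 19.6 CPM in cDC1, 72.3, 83.1 and 52.9 CPM in cDC2, and 39.2, 47.0 and 23.3 CPM in pDC. Replicate 3 was the lowest library in each subset, yet the lowest cDC2 library lay above the highest library of the other subsets. The log2 fold change was 1.06 for cDC2 against cDC1 (SE 0.323, edgeR adjusted p = 0.0386) and -0.93 for pDC against cDC2 (SE 0.322, adjusted p = 0.0393). With subset as the only term, each call was lost without any 1 of 5 libraries. For cDC2 against cDC1 these were cDC1 replicates 1 and 3, cDC2 replicates 1 and 2 and pDC replicate 1 (edgeR adjusted p between 0.0570 and 0.141). For pDC against cDC2 they were cDC1 replicate 1, cDC2 replicates 1 and 2 and pDC replicates 1 and 3 (edgeR adjusted p between 0.0532 and 0.129). Without replicate 3 of each subset the log2 fold changes were 0.93 and -0.85 (edgeR adjusted p = 0.001104 and 0.000758).

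Traf6 (ENSMUSG00000027164, plus strand of chromosome 2, 101678429 to 101701669), the ligase downstream of MyD88, stood at 51.0, 46.8 and 58.6 CPM in cDC1, 52.0, 50.8 and 66.1 CPM in cDC2, and 53.7, 48.8 and 55.4 CPM in pDC. The 3 subsets overlapped, and the approximate 95% intervals of the log2 fold change lay within -0.37 and 0.38 in the 3 comparisons. Neither Traf3 nor Traf6 shares an exon base with another annotated gene.

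Set against replicates 1 and 2 in a model with subset and replicate number, 3 of the 10 genes were called in replicate 3, where 23.0% of all genes were called. Traf3 was lower by a log2 difference of -0.80 (SE 0.0990, edgeR adjusted p = 0.000983), and was below replicates 1 and 2 in all 3 subsets. Myd88 was higher by 0.27 (SE 0.0508, edgeR adjusted p = 0.00622) and Traf6 by 0.25 (SE 0.0711, adjusted p = 0.0361), and each was above replicates 1 and 2 in all 3 subsets. The call for Traf6 held in 5 of 15 alternatives, and those for Traf3 and Myd88 in 15 of 15. Irak2 was below replicates 1 and 2 in all 3 subsets, by -0.27 (SE 0.0895), but was not called (edgeR adjusted p = 0.0635). Irak1 differed by less than 0.04 on the log2 scale in each subset.

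**Figure D4:**
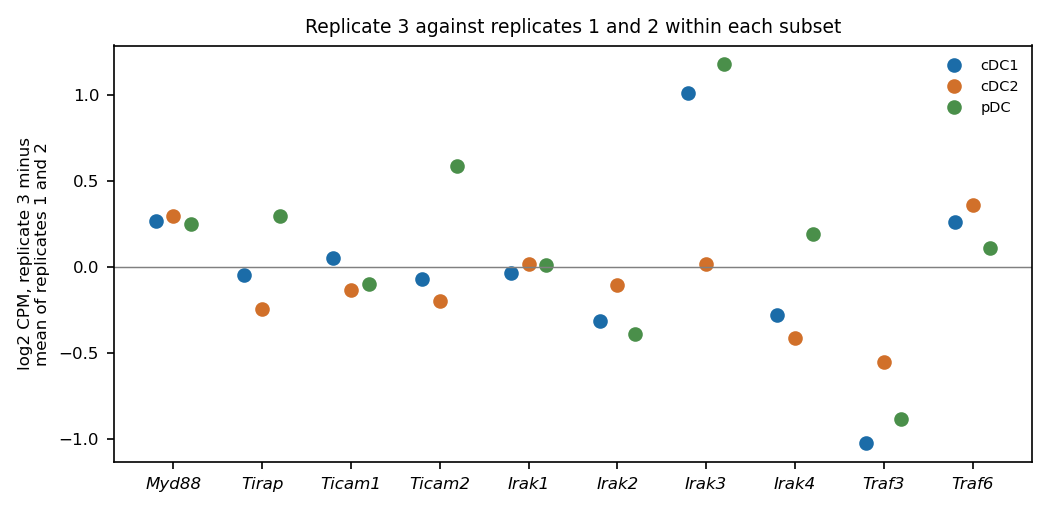
Log2 CPM of replicate 3 minus the mean of replicates 1 and 2 for each gene, with 1 point for each subset. The Traf3 points lie between -1.03 and -0.55 and the Myd88 points between 0.25 and 0.30, whereas Irak3, which rests on few counts, and Ticam2 and Irak4 scatter between subsets.

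Ordered by CPM per kb, Myd88 came first and Irak1 second in each subset, at 48.9 and 32.6 in cDC1, 66.7 and 35.3 in cDC2, and 53.1 and 33.6 in pDC. Irak3 came last in each subset. In cDC1, Ticam1 at 17.3 and Irak4 at 11.96 followed, and their libraries did not overlap. In cDC2, Irak4 followed at 15.6, clear of Ticam1 at 10.1, and the ranges of Ticam1, Traf3, Ticam2, Irak2 and Traf6 each overlapped the next. In pDC, Ticam1 at 10.5, Irak2 at 8.91, Irak4 at 8.09, Traf6 at 6.68 and Traf3 at 4.97 each overlapped the next. Ticam2 rose from the ninth place in cDC1, at 1.103 CPM per kb, to the sixth in cDC2, at 8.34.

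For each gene, the other gene whose level followed it most closely over the 9 libraries was sought among 8841 genes by Pearson's r of log2(CPM + 1). These r describe libraries that share sorts and subsets, and carry no test. Slc8b1 was closest to Ticam1 (r = 0.996), with 535 ± 10.7, 78.2 ± 6.58 and 82.6 ± 2.99 CPM (SD, n = 3) in cDC1, cDC2 and pDC. Clec4a3, which encodes a C-type lectin receptor, was closest to Ticam2 (r = 0.996), with 1.80 ± 0.896, 57.5 ± 4.92 and 3.46 ± 1.69 CPM. The chemokine gene Ccl9 was closest to Irak3 (r = 0.983), with 4.55 ± 2.22, 57.9 ± 14.7 and 7.80 ± 5.76 CPM. The closest to the rest were Napsa for Myd88 (r = 0.986), Dbr1 for Tirap (r = 0.994), Hipk1 for Irak1 (r = 0.980), Sos1 for Irak2 (r = 0.975), Spire1 for Irak4 (r = 0.983), Pdcd7 for Traf3 (r = 0.993) and Abt1 for Traf6 (r = 0.950).

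The pathway around these genes was read from 68 others, of which 67 were tested. In pDC against cDC1, 40 were called, 18 higher and 22 lower in pDC. In pDC against cDC2, 43 were called, 16 higher and 27 lower, and in cDC2 against cDC1, 25 were called, 14 higher and 11 lower in cDC2. These are 59.7%, 64.2% and 37.3% of those tested, beside 48.6%, 45.8% and 24.4% of all genes. Their median absolute log2 fold change was 0.70, 0.74 and 0.43 in the same order.

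The 12 TLR genes, upstream of the adaptors, had a median absolute log2 fold change of 1.44, 2.34 and 2.64 in the 3 comparisons, beside 0.36, 0.54 and 0.61 for the 10 genes, and 8, 11 and 8 of them were called. Tlr3, whose adaptor is TRIF, stood at 322 ± 29.5 CPM in cDC1, against 31.1 ± 8.02 in cDC2 and 1.84 ± 1.16 in pDC (SD, n = 3), and its log2 fold change for pDC against cDC1 was -7.38 (SE 0.439, edgeR adjusted p = 8.20e-07). Tlr11, a receptor of profilin, was likewise highest in cDC1, at 538 ± 8.39 CPM, with 54.3 ± 10.5 in cDC2 and 3.06 ± 2.33 in pDC. Tlr1, a partner of TLR2, stood at 125 ± 11.1 CPM in cDC2, against 11.5 ± 2.26 in cDC1 and 2.22 ± 1.02 in pDC, and 10.6% of its 75-base windows occur in other genes. Tlr7, a sensor of single-stranded RNA, stood at 443 ± 104 CPM in pDC, against 82.2 ± 19.9 in cDC2 and 6.52 ± 2.20 in cDC1. Tlr13, a sensor of bacterial ribosomal RNA, stood at 118 ± 8.95 CPM in cDC1, against 123.1 ± 16.4 in cDC2 and 4.85 ± 3.59 in pDC. Transcripts of TLR3, which signals through TRIF, and of TRIF itself were thus both highest in cDC1. Tlr4, the receptor that TRAM serves, was named after its values were seen. It stood at 6.28 ± 0.485 CPM in cDC1, against 6.20 ± 1.21 in cDC2 and 3.88 ± 1.46 in pDC, and passed the threshold in no comparison (edgeR adjusted p between 0.0795 and 0.975). Its log2 fold change for cDC2 against cDC1, where that of Ticam2 was 2.92, was -0.02, with an approximate 95% interval from -0.60 to 0.56.

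Of the 5 receptor cofactors, 3 were higher in pDC in each comparison with pDC and none lower. Beside these, 24.3% of all genes were called higher in pDC than in cDC1 and 22.5% higher than in cDC2. Hsp90b1, which encodes the chaperone gp96 of the TLRs, was higher in pDC than in cDC2 by 1.95 on the log2 scale (SE 0.220, edgeR adjusted p = 6.17e-05). Unc93b1, which carries nucleic acid sensing TLRs to endosomes, was higher in pDC than in cDC2 by 0.80 (SE 0.0977, edgeR adjusted p = 0.000108), and Cnpy3, a TLR folding factor, was higher in pDC than in cDC1 by 0.70 (SE 0.0980, adjusted p = 0.000244). Of the 5 receptors of the IL-1 family, which also use MyD88, 0, 2 and 1 were called in the 3 comparisons. Il1rap, the shared subunit, stood at 10.1 ± 1.08 CPM in cDC1, against 4.04 ± 0.844 in cDC2 and 12.3 ± 3.48 in pDC (SD, n = 3). Il18rap stood at 1.73 ± 0.492, 6.06 ± 1.72 and 1.09 ± 0.954 CPM in the same order, and the NK cell marker Ncr1 was also highest in cDC2, at 6.42 ± 4.05 CPM beside 1.32 ± 0.183 in cDC1 and 1.504 ± 0.482 in pDC. The summed level of 5 NK cell markers was between 128 and 158 CPM in cDC1, between 83.8 and 154 CPM in cDC2 and between 24.0 and 55.6 CPM in pDC, and in cDC2 against cDC1 1 of the 5 was called higher (Ncr1) and 1 lower (Klrk1). Their part in the Il18rap result was not tested.

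The other TRAF genes moved apart. Traf4 was higher in pDC, at 67.8 ± 3.85 CPM beside 8.31 ± 1.65 in cDC1 and 6.16 ± 0.966 in cDC2 (SD, n = 3), and its log2 fold change for pDC against cDC2 was 3.47 (SE 0.185, edgeR adjusted p = 4.05e-07). Traf1 was lower in pDC, at 38.4 ± 3.33 CPM beside 205 ± 35.9 in cDC1 and 350.3 ± 25.5 in cDC2, and Traf2 was higher in cDC2 than in cDC1 by 0.95 (SE 0.153, edgeR adjusted p = 0.00144). Of the 11 tested genes of the ubiquitin and TAK1 complexes, 5, 6 and 2 were called. Peli2, a ubiquitin ligase that binds IRAK1, stood at 80.4 ± 5.31 CPM in pDC, against 2.01 ± 0.487 in cDC2 and 0.786 ± 0.237 in cDC1, and 8.78% of its 75-base windows occur in other genes. Ube2n, the conjugating enzyme of TRAF6, was lower in pDC than in cDC1 by a log2 fold change of -1.23 (SE 0.180, edgeR adjusted p = 0.000329), and 8.85% of its windows occur in other genes. Sharpin, of the linear ubiquitin complex, was lower in cDC2 than in cDC1 (-0.41, SE 0.109, edgeR adjusted p = 0.0221).

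Of the 10 genes of the IKK and TBK1 complexes, 6, 5 and 1 were called. Ikbke, which encodes IKKε, stood at 8.21 ± 1.38 CPM in pDC, against 1.14 ± 0.422 in cDC2 and 0.524 ± 0.141 in cDC1 (SD, n = 3). Tbkbp1, an adaptor of TBK1, was lower in pDC than in cDC1 by a log2 fold change of -3.69 (SE 0.407, edgeR adjusted p = 4.60e-05), and Tank, another TBK1 adaptor, was higher in cDC2 than in cDC1 by 0.67 (SE 0.166, adjusted p = 0.0147). Of the 7 MAP kinase genes, 7, 4 and 4 were called, with 6 lower in pDC than in cDC1, beside 24.4% of all genes. Map2k6, which activates p38, stood at 66.8 ± 2.53 CPM in cDC1, against 23.2 ± 3.75 in cDC2 and 13.8 ± 0.0968 in pDC, while Mapk14, which encodes p38α, stood at 399 ± 15.8, 713 ± 38.1 and 190 ± 18.7 CPM. Both were lowest in pDC, with the highest level of Map2k6 in cDC1 and that of Mapk14 in cDC2.

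Of the 6 transcription factor genes, 3, 4 and 3 were called. Irf7, which drives interferon genes, stood at 523 ± 90.6 CPM in pDC, against 136 ± 34.7 in cDC1 and 128 ± 38.9 in cDC2 (SD, n = 3), and replicate 3 was its highest library in each subset. Irf5 was lower in pDC than in cDC1 by a log2 fold change of -1.01 (SE 0.0935, edgeR adjusted p = 1.42e-05). Nfkb1 and Rel, of the NF-κB family, exceeded their cDC1 levels in cDC2 by 1.45 and 1.12 on the log2 scale (edgeR adjusted p = 9.22e-05 and 0.000376). Of the 7 genes that restrain the pathway, 5, 4 and 3 were called. Pik3ap1, which encodes BCAP, was higher in pDC than in cDC1 by 1.58 (SE 0.151, edgeR adjusted p = 1.71e-05), and Tnfaip3, which encodes A20, by 0.89 (SE 0.197, adjusted p = 0.00413). Tnip1 and Cyld exceeded their cDC1 levels in cDC2 by 0.69 and 0.42 (edgeR adjusted p = 0.0192 and 0.0115). Sarm1, another adaptor with a TIR domain, was named after its values were seen. Its counts were 88, 111 and 76 in cDC1, 12, 23 and 10 in cDC2, and 2, 1 and 1 in pDC, which is under the floor of 3 counts in each pDC library. Its mean level of 4.33 CPM in cDC1 was at least 30.9-fold higher than that floor in pDC.

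**Figure D5:**
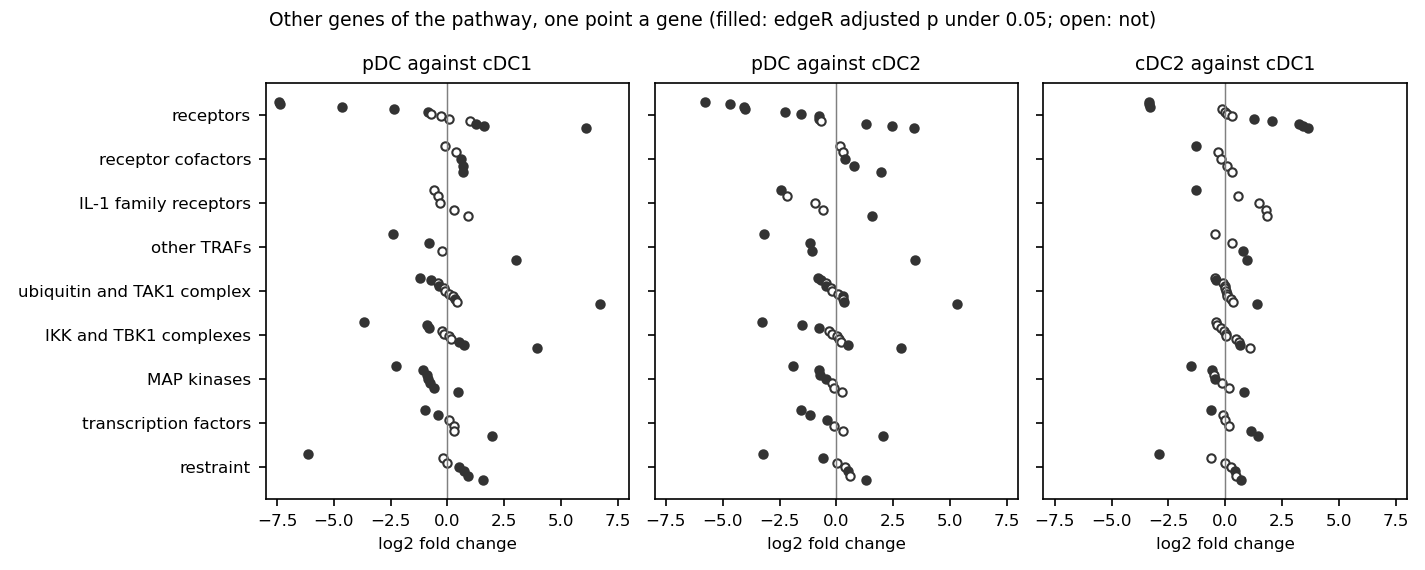
Log2 fold changes of the 67 tested pathway genes by role in the 3 comparisons, first-named subset minus second, with filled points past the edgeR threshold. Points for receptors spread from -7.39 to 6.10 in pDC against cDC1. There 6 of the 7 MAP kinase genes were called lower in pDC, beside 24.4% of all genes.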

How the data were processed

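The authors deposited 1 table of raw read counts per gene, unnormalized, with a column for each of the 9 libraries (Illumina stranded mRNA kit, 75-base single reads). The submitters' processing notes name STAR, SAMtools, MultiQC, featureCounts and mm10 without versions, and whether counting used the strand is not given in the sources used here.

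Groups and replicate numbers came from the labels. The tests used edgeR 4.0.16 (R 4.3.3). Low genes were removed with filterByExpr (minimum count 10), libraries were scaled by TMM, and subset was the only term of the quasi-likelihood fit over 9 libraries. Benjamini-Hochberg adjustment ran over 13819 genes, and the threshold was 0.05. The code was tested on simulated counts. Same-numbered libraries carry the same date code and deviated together (mean r of 0.403 across genes, 0.266 to 0.543 over 9 pairs). Replicates were further apart than sampling noise (chi-square per degree of freedom of 9.93 to 64.4).

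The 10 genes and the lists were chosen with earlier results of these data known. Beside the 10, the text names, for each list and comparison, the 2 genes with the largest change among those called that average 100 counts or more in the higher subset and move one way in 3 pairs, and the closest gene to each of the 10 among genes with a mean of at least 10 CPM. Levels per length used the union of exons in GENCODE M21 (GRCm38), and other positions are from it too. The interferon and NF-κB letters were shortened from forms of 10 letters after a first search. Alternatives were the replicate block, DESeq2 1.42.0, limma-voom (limma 3.58.1), other scalings, filters and thresholds, fits of 6 libraries and leaving out libraries. Leaving out the third sort was chosen after seeing the data.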

Additional observations from a re-analysis of the deposited data

How the results depend on the processing

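No fold change of the 10 genes that had been called changed its direction under any alternative. Of 195 alternatives for counts and ratios, 187 stayed within 1.5 times the count or within the spread, and of 567 for fold changes, 531 kept their side of the threshold, 14 gained it and 22 lost it. In 21 of 30 gene and comparison pairs no call changed. Also requiring a log2 fold change of 1 or more in size calls fewer genes by construction. At this threshold 1 of the 10 genes was called in pDC against cDC1 and 2 in pDC against cDC2. In cDC2 against cDC1, Tirap, Ticam2, Irak3 and Traf3 were called (-1.13, 2.92, 2.35 and 1.06). Of the pathway genes, 19, 26 and 15 were called in the same order of comparisons. The share of all genes at this threshold is not given here, so these counts cannot be set against it.

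With each library left out in turn, between 3 and 4 of the 10 genes were called in pDC against cDC1, between 3 and 6 in pDC against cDC2 (3 without cDC2 replicate 1 or pDC replicate 1), between 3 and 6 in cDC2 against cDC1 (3 without cDC2 replicate 1), between 5 and 7 for any difference, and between 2 and 4 in replicate 3. Pathway counts were between 35 and 41, 40 and 44, and 22 and 30. Shares of all genes in the fits with a library left out are not given here either. The log2 ratio of Ticam1 to Myd88 was between -1.32 and -1.08 for cDC2 against cDC1, -0.92 and -0.73 for pDC against cDC1, and 0.24 and 0.50 for pDC against cDC2. That of Irak3 to Irak4 was between 1.51 and 2.60, 0.64 and 1.73, and -1.20 and -0.53 in the same order. The cause of these changes was not tested. Tirap in 3 comparisons and, in 2 each, Ticam1 against cDC1, Ticam2 against cDC2 and Irak4 in pDC kept their calls without each of the 9 libraries.

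With the replicate number as a block, which follows the pairing by sort, 3, 7 and 7 of the 10 genes were called in the same comparisons, taken in the order above. The block changed no call of the 10 genes beyond those given for Myd88, Irak2 and Irak4. Without the third sort, 3, 7 and 7 were called, beside 63.0%, 59.8% and 37.7% of all genes tested in that fit, and it added calls for Myd88, Irak2 and Irak4, as given above. Scaling by library size only moved the median of all genes in cDC2 against cDC1 by 0.11 and the share of calls that were higher in cDC2 from 52.2% to 63.1%. Irak3 rests on as few as 7 counts in a library, and each subset has 3 libraries.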
